A study of Drosophila melanogaster with 9 samples.

Results

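Dpr, DIP, Beat and Side proteins are cell surface molecules of the immunoglobulin superfamily, and the genes for them were followed here through serial allografts of a *Drosophila* brain tumour. Members were chosen by gene symbol alone: *dpr* with a number, any symbol that starts with *DIP-* or *beat-*, and *side* or any symbol that starts with *side-*. This gave 53 genes of the 13215 features listed in at least 1 comparison, namely 21 *dpr*, 11 *DIP*, 13 *beat* and 8 *side* genes. All 53 were listed in both comparisons of an allograft stage with the primary tumour, and 42 in the comparison of the allograft stages with each other. *beat-IIIa* was not analysed here.

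RNA was sequenced from 9 libraries in 3 groups of 3, and every group carried the same overexpression. *NΔecd*, a constitutively active Notch receptor without its extracellular domain, was driven together with GFP in random clones of the larval central nervous system by an actin promoter after FLP-out recombination (*act-F/O*). The N-FACS group held GFP-positive cells sorted from 150 dissociated larval brains per replicate, taken in the third instar at 4 days from the induction of the clones, and the sort also takes labelled neurons and glia that belong to the clones. For N-T0, brain lobes of that genotype were grafted into the abdomen of adult female *w1118* hosts and grown for 8 to 10 days, and the masses of 25 hosts made up a replicate. For N-T3, the tumour had been transplanted again until the fourth allograft, which grew for 6 to 8 days, again with 25 hosts per replicate. The allograft masses were not sorted and can hold host cells, so tumour stage, sorting and host tissue cannot be told apart in either comparison with N-FACS. No library-by-library values were used here, so each level below is a group mean of 3 libraries. Its error is the standard error (SE) of the fold change between groups, except where an SE of the group mean is named. Each replicate was its own pool of animals, but labels did not say whether the pools came from separate crosses. Nor did they say whether the N-T3 pools, grown by serial transplantation, descended from separate first grafts. The p-values may therefore miss the spread between crosses and between founding tumours.

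In the fly nervous system each neuron type carries its own combination of these molecules. DIPs bind particular Dprs on the facing cell, and such pairs are known for matching synaptic partners and for the survival of the neurons that carry them. Beat proteins bind Side proteins in the same manner, and the founding pair, Beat-Ia on motor axons and Side on the tissue they grow along, steers motor axons towards their muscles. These genes are thus expected mainly in differentiated neurons rather than in neural stem cells.

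Nearly all members were lower in the allografts than in the sorted primary tumour. A gene was called where it changed by 0.5 or more on the log2 scale at an adjusted p of at most 0.05, by the Wald test of the authors. In N-T0, 48 of 53 members were called lower and 0 higher, where 16.2% of all 12167 tested features were called lower and 15.3% higher. At an unadjusted p under 0.05, 49 members passed in N-T0, all of them with a negative fold change. The share of all features that passed this unadjusted limit was not computed. In N-T3, 49 members were called lower and 1 higher, against 18.2% and 17.2% of 12501 features. The 48 members called lower in N-T0 were all called lower in N-T3, though these calls share the N-FACS libraries. The median log2 fold change of the members was −4.31 in N-T0 and −5.40 in N-T3, and over all features at a base mean of 10 or more the medians were 0.02 and 0.0019. Since 16 members in N-T0 and 20 in N-T3 had a mean under 3 normalized counts, the medians were also computed with 3 in place of those means and then came to −4.18 and −4.73. A normalized count is a read count divided by the size factor of its library.

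Group means were modest in the primary tumour and close to the limit of counting in the allografts. In N-FACS the member means ran from 15.1 (*DIP-iota*) to 787 (*dpr12*) normalized counts, with a median of 139. The median was 8.06 in N-T0 and 4.92 in N-T3. Means were under 10 normalized counts for 30 members in N-T0 and for 36 in N-T3, and 14 members were under 3 at both stages. At the other end, 5 members had a mean of at least 100 at both stages: *dpr12*, *dpr17*, *DIP-alpha*, *side-V* and *side-VII*. Below, a group mean under 3 is replaced by 3 for a fold change, which is then a lower bound.

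**Figure D1:**
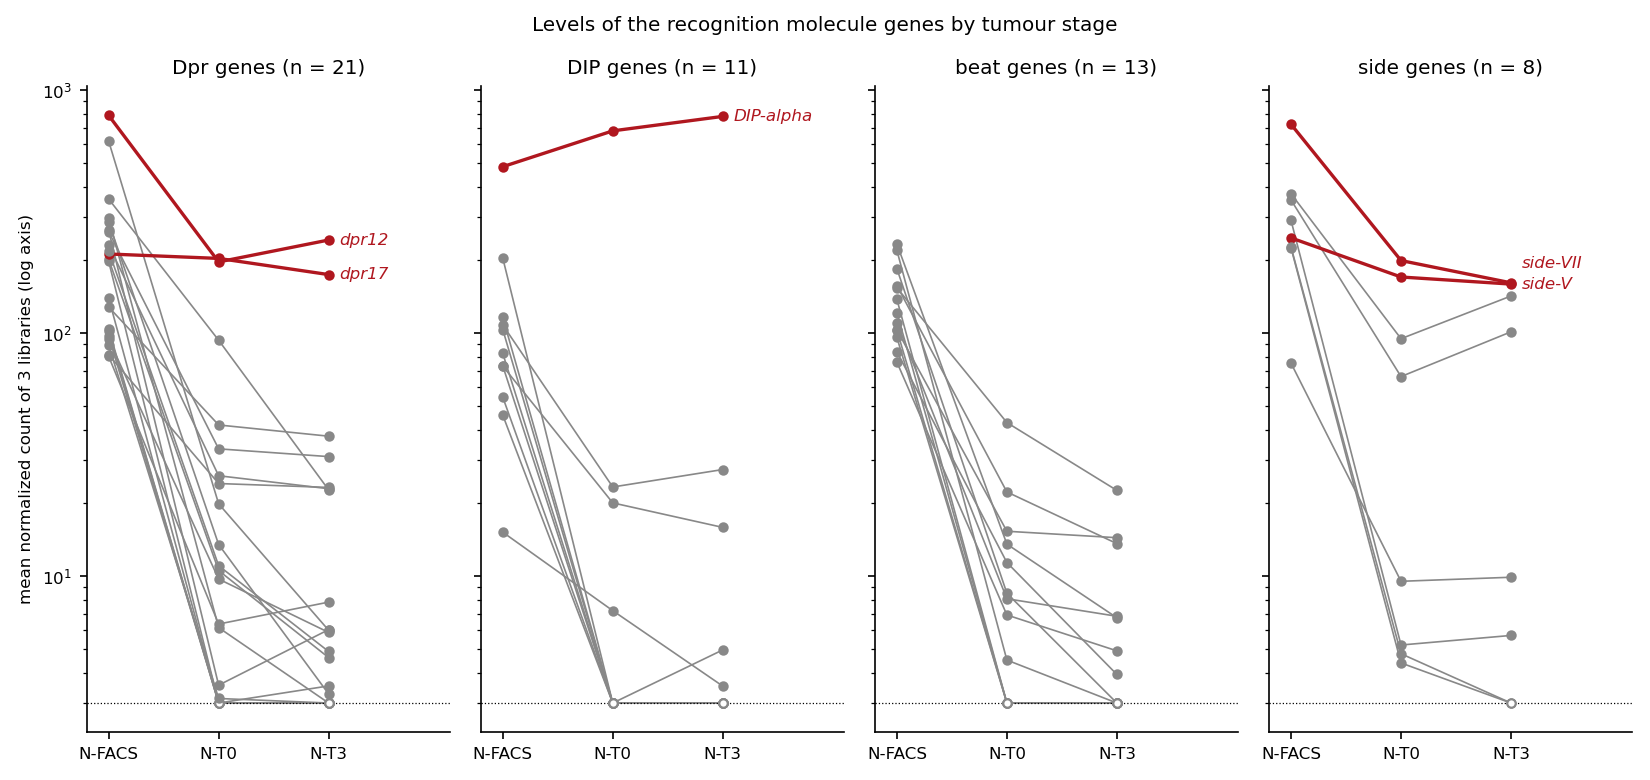
Mean normalized count of 3 libraries (log axis) for every member in N-FACS, N-T0 and N-T3, 1 line per gene and 1 panel per family. Red lines are the 5 genes with a mean of at least 100 in both allograft stages, and open points on the dotted line are means under 3. Most lines drop from around 139 in N-FACS to under 10, while *DIP-alpha* goes from 484 to 780.

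Among the *dpr* genes, 20 of 21 were called lower at each stage, with a median log2 fold change of −4.31 in N-T0 and −5.47 in N-T3. *dpr7*, the member with the highest level per kilobase of exons in the primary tumour, had the smallest p at both stages. Its mean went from 617 in N-FACS to 19.8 in N-T0 and 5.98 in N-T3. The log2 fold changes were −4.96 (SE 0.32, adjusted p = 1.4e-51) and −6.72 (SE 0.39, adjusted p = 8.6e-64), which left 3.21% and 0.948% of the N-FACS level. It is the only member on chromosome 4, at 247124 to 253329 in BDGP6.54.

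*dpr9*, *dpr11* and *dpr8* were also among the members with the smallest p. *dpr9* had means of 265, 3.55 and 6.02 in N-FACS, N-T0 and N-T3, and log2 fold changes of −6.22 (SE 0.61, adjusted p = 1.3e-22) and −5.49 (SE 0.47, adjusted p = 1.9e-30). *dpr11*, a partner of DIP-gamma in the pairing of photoreceptors with their medulla targets, went from 297 to 6.13 (log2 fold change −5.60, SE 0.55) and then to 1.41, at least 101-fold lower than in N-FACS. *dpr8* went from 201 to 10.5 and 4.62, with a log2 fold change of −5.47 (SE 0.51, adjusted p = 7.75e-26) in N-T3. All 3 genes thus kept under 6% of the primary level. *dpr4*, *dpr5*, *dpr10* and *dpr13* were under 3 normalized counts at both stages and were at least 32.4-fold lower, as was *dpr2* in N-T0.

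A second set of *dpr* genes was lower but stayed countable. *dpr12*, which acts with DIP-delta in the regrowth of mushroom body axons, went from 787 to 196 and 242 (log2 fold changes −2.00, SE 0.33, and −1.74, SE 0.22). *dpr1*, named for a defect in the proboscis response to salt, went from 128 to 41.9 and 37.6, and its call in N-T0 (log2 fold change −1.61, SE 0.65, adjusted p = 0.043) was lost when the change itself had to exceed 0.5 (adjusted p = 0.19). *dpr6* went from 81.4 to 24.0 and 23.2, and its N-T0 call (log2 fold change −1.76, adjusted p = 0.022) was lost in the same test (adjusted p = 0.12). These genes kept between 24.9% and 32.7% of the N-FACS mean in both stages. *dpr14*, *dpr16*, *dpr3* and *dpr20* kept between 6.02% and 12.8%, and *dpr19* and *dpr21* kept between 1.12% and 5.05%.

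*dpr17* was the only *dpr* gene that was not called at either stage. Its means were 212 in N-FACS, 203 in N-T0 and 174 in N-T3. The log2 fold change was −0.06 (SE 0.34, 95% limits −0.72 to 0.60, adjusted p = 0.92) in N-T0 and −0.31 (SE 0.22, limits −0.74 to 0.12, adjusted p = 0.27) in N-T3. The limits therefore leave room for a fall of up to 0.74 on the log2 scale and do not show that the level was constant. *dpr17* lies on chromosome 3R at 12094876 to 12111420, 27.4 kb from *dpr15*, a gene for another DIP-gamma partner. *dpr15* went from 89.1 to 3.13 and 0.379, 28.5-fold lower in N-T0 and at least 30.4-fold lower in N-T3, and its limits in N-T0 (−6.26 to −3.40) did not overlap those of *dpr17*.

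**Figure D2:**
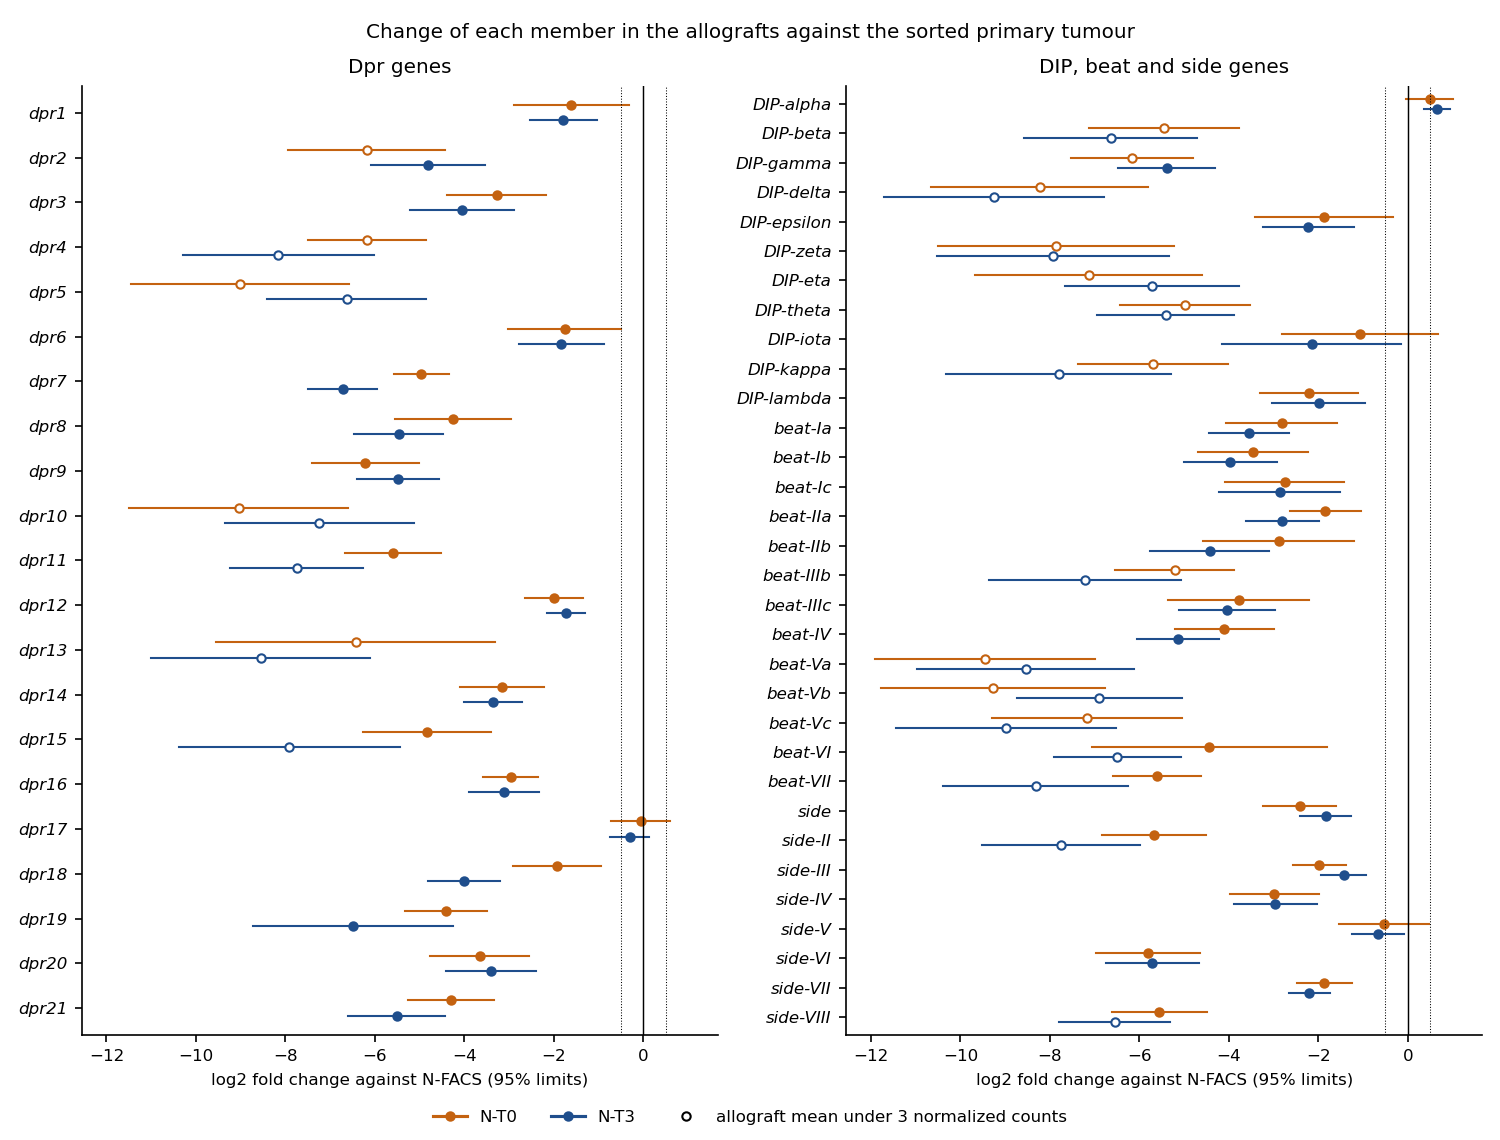
Log2 fold change of each member against N-FACS with 95% limits, for N-T0 (orange) and N-T3 (blue), with the *dpr* genes on the left and the other families on the right. Dotted lines mark changes of 0.5, and open points have an allograft mean under 3 normalized counts, where the fitted fold is not a bound. *DIP-alpha*, *dpr17* and *side-V* sit near 0, while the median member is at −4.31 in N-T0 and −5.40 in N-T3.

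*DIP-alpha* was the only member called higher. The protein sits on particular motor neurons and medulla neurons and binds Dpr6 and Dpr10. Its mean went from 484 in N-FACS to 680 in N-T0 and 780 in N-T3. The log2 fold change was 0.49 in N-T0 (SE 0.27, 95% limits −0.03 to 1.01, adjusted p = 0.15), which did not pass. It was 0.66 in N-T3 (SE 0.15, limits 0.36 to 0.95, adjusted p = 6.2e-05). The call in N-T3 did not hold for a change of at least 1, nor in a test of whether the change exceeded 0.5 (adjusted p = 0.44). The gene lies on chromosome X at 3507245 to 3571649, and it shares 1.76% of its exon bases with *CG2875* and 1.18% with *ppk8*. *CG2875* was itself called lower in N-T3 (log2 fold change −0.63), and *ppk8* had a base mean of 10.8 normalized counts in that comparison.

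The other 10 *DIP* genes were all below their N-FACS level, with 8 called lower in N-T0 and 9 in N-T3. *DIP-gamma*, the *DIP* gene with the highest level per kilobase in N-FACS, went from 203 to 2.83 and 4.96, at least 67.8-fold lower in N-T0 and 41.9-fold lower in N-T3. *DIP-delta* went from 116 to 0.386 and 0.194, at least 38.7-fold and 39.5-fold lower. Including *DIP-delta*, 6 *DIP* genes were under 3 normalized counts at both stages, the others being *DIP-beta*, *DIP-zeta*, *DIP-eta*, *DIP-theta* and *DIP-kappa*. Their N-FACS means were only 45.9 to 116, so the lower bounds on their folds were between 15.3 and 39.5. *DIP-lambda* and *DIP-epsilon* stayed countable. *DIP-lambda* went from 108 to 23.2 and 27.4, and *DIP-epsilon* from 73.1 to 20.0 and 15.9. *DIP-epsilon* missed the threshold in N-T0 (log2 fold change −1.87, SE 0.79, adjusted p = 0.052) and passed it in N-T3 (−2.22, SE 0.52, adjusted p = 8.5e-05). *DIP-iota*, the lowest member in N-FACS, went from 15.1 to 7.20 and 3.52 and was not called (adjusted p = 0.38 and 0.075).

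All 13 *beat* genes were called lower at both stages. Beat proteins are thought to act as receptors for Side proteins on axons. *beat-VII* had the smallest p of the family in N-T0 (219 to 4.51, log2 fold change −5.60, SE 0.50, adjusted p = 4.05e-27) and was at 0.705 in N-T3, at least 74.8-fold lower. *beat-IV* had the smallest in N-T3, with means of 233, 13.5 and 6.73 and a log2 fold change of −5.14 (SE 0.47, adjusted p = 4.8e-26). *beat-IIa* kept the most of its level, at 154, 42.8 and 22.5, which left 27.9% in N-T0 and 14.3% in N-T3. No *beat* gene had an allograft mean above the 42.8 of *beat-IIa*, so this family lacked a member like *DIP-alpha* or *dpr17*.

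The *beat-V* and *beat-I* genes are each neighbours on their chromosome, and whether neighbours were more alike than other members was not tested. *beat-Va*, *beat-Vb* and *beat-Vc* follow each other on chromosome 3R with gaps of 57.3 and 67.6 kb. They had means of 95.9 to 138 in N-FACS and were under 3 normalized counts at both stages, at least 32.0-fold lower. With 14 of all 53 members under 3 at both stages, this says nothing particular about neighbours. *beat-Ia*, the receptor of motor axons for Side, *beat-Ib* and *beat-Ic* lie within 1 stretch of chromosome 2L and all kept between 6.40% and 14.8%. *beat-IIb* and *beat-IIa*, 55.0 kb apart on chromosome 3R, kept 13.6% and 27.9% in N-T0. In N-T3 they kept 4.63% and 14.3%, though their 95% limits overlapped at both stages. In the *dpr* family, *dpr5* and *dpr4*, 27.5 kb apart, were both under 3 normalized counts at both stages, but neighbours could differ. *dpr6* and *dpr10* are 8.09 kb apart on chromosome 3L, and *dpr10* went from 104 to 0.197 and 0.705, at least 34.6-fold lower in N-T0, where *dpr6* was 3.39-fold lower. The 95% limits of their log2 fold changes in N-T3, −2.78 to −0.88 and −9.36 to −5.12, did not overlap.

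The *side* genes were split. In N-T0 and N-T3, 7 of 8 were called lower, with a median of −2.70 and −2.58. *side-VII*, the highest *side* gene, went from 723 to 199 and 161 (log2 fold changes −1.86, SE 0.31, and −2.20, SE 0.23). *side-III* went from 375 to 94.8 and 142, and *side*, the ligand of Beat-Ia, from 353 to 66.2 and 101. These 3 genes kept between 18.8% and 37.1% of the N-FACS mean. *side-II*, *side-VI* and *side-VIII*, which began at means of 224 to 291, kept between 1.79% and 2.12% in N-T0. In N-T3 *side-VI* was 52.3-fold lower, and *side-II* and *side-VIII*, then under 3 normalized counts, were at least 76.6-fold and 77.0-fold lower. *side-VI* had means of 291, 5.2 and 5.69 (log2 fold changes −5.81, SE 0.59, and −5.71, SE 0.53, adjusted p = 4.1e-21 and 3.6e-25), and *side-VIII* had 226, 4.79 and 2.46 (−5.56 in N-T0, SE 0.54, adjusted p = 7.5e-23). These genes and *side-V*, described next, had similar N-FACS means and different values in the allografts.

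*side-V* was not called at either stage. Its means were 246, 170 and 159. The log2 fold change was −0.53 in N-T0 (SE 0.51, 95% limits −1.54 to 0.47, adjusted p = 0.46) and −0.66 in N-T3 (SE 0.29, limits −1.24 to −0.08, adjusted p = 0.055). The limits in N-T3 excluded 0 although the adjusted p missed the threshold, so an unchanged level was not shown. *side-IV* went from 75.2 to 9.51 and 9.88, and this value is uncertain because 67.5% of its exon bases overlap the antisense genes *asRNA:CR46354* and *asRNA:CR17025*, and strand use in the counting was not given in the sources used here.

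The levels were set beside each other per kilobase of exons, since the genes differ in length. The sum over the 53 members was 3040 normalized counts per kilobase in N-FACS, 435 in N-T0 and 374 in N-T3, so the allografts held 14.3% and 12.3% of the primary sum. By family, the share left in N-T0 and N-T3 was 11.3% and 8.53% for *dpr*, 31.3% and 34.1% for *DIP*, 7.6% and 4.27% for *beat*, and 22.8% and 22.2% for *side*. The *DIP* value rested mainly on *DIP-alpha*, which made up 16.9% of the *DIP* sum in N-FACS, 75.9% in N-T0 and 79.9% in N-T3.

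The order of the genes changed along with the sums. In N-FACS the 5 highest members per kilobase were *dpr7* (407), *dpr21* (220), *dpr12* (167), *side-VII* (163) and *dpr18* (135), and they made up 36.0% of the sum. In N-T0 they were *DIP-alpha* (75.7), *dpr17* (45.3), *side-VII* (44.9), *dpr12* (41.7) and *dpr18* (35.5), with 55.9% of the sum. In N-T3 they were *DIP-alpha* (86.8), *dpr12* (51.4), *dpr17* (38.9), *side-VII* (36.3) and *side-V* (27.6), with 64.4%. *dpr7* and *dpr21* headed the primary tumour and fell to 13.1 and 11.1 per kilobase in N-T0 and 3.95 and 4.92 in N-T3. An SE of the log2 group mean was solved from the SEs of the 3 comparisons. It is approximate, since the comparisons were normalized separately and the solution gave no value in N-FACS for many members. In N-T0 it was 0.24 for *DIP-alpha*, 0.29 for *dpr17*, 0.27 for *side-VII*, 0.32 for *dpr12* and 0.42 for *dpr18*. *dpr17*, *side-VII* and *dpr12* in N-T0 differed from each other by less than these errors, whereas *DIP-alpha* lay above them at 75.7. No test between genes was run.

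Binding partners were set side by side in 14 known pairs over 21 genes. Both genes were called lower in 11 pairs at each stage, and with 48 and 49 of all 53 members called lower, and with genes such as *DIP-gamma* and *side-VI* in several pairs, this count says nothing particular about partners. The remaining pairs involved *DIP-alpha* with *dpr6* and *dpr10*, and *DIP-gamma* with *dpr17*. *DIP-alpha* was 4.18 times *dpr6* per kilobase in N-FACS, 19.9 times in N-T0 and 23.7 times in N-T3, with *dpr6* called lower and *DIP-alpha* not. *DIP-gamma* had been 1.39 times *dpr17* in N-FACS, whereas in N-T3 *dpr17* was at 38.9 per kilobase and *DIP-gamma* at 1.6. *dpr12* was already 6.93 times *DIP-delta*, its partner, per kilobase in N-FACS. Called lower at both stages, *dpr12* was still at 41.7 and 51.4 per kilobase, while *DIP-delta* was under 3 normalized counts. Among the *beat* and *side* pairs, *beat-Ia* and *side* were both lower, at 7.73 and 5.65 per kilobase in N-T0. Levels of mRNA in bulk samples do not show whether partners were on adjoining cells.

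**Figure D3:**
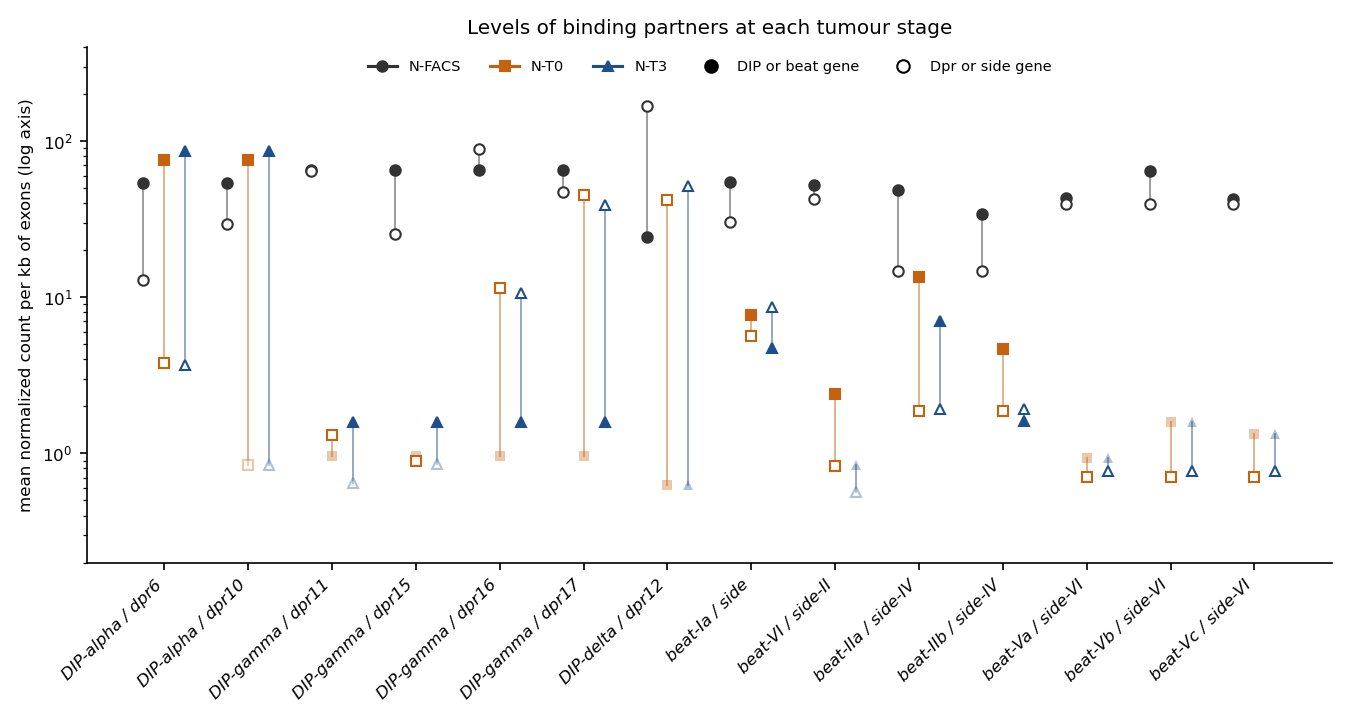
Mean normalized count per kilobase of exons (log axis) of 14 binding pairs in N-FACS (grey circles), N-T0 (orange squares) and N-T3 (blue triangles), with filled markers for the *DIP* or *beat* gene and open markers for the *dpr* or *side* gene. Pale markers are means under 3 normalized counts, drawn at 3 divided by exon length. In N-FACS every pair has both genes above 12 per kilobase, and in the allografts *DIP-alpha*, *dpr17* and *dpr12* stand far above their partners. *dpr12* is already 6.93 times *DIP-delta* in N-FACS, and *DIP-alpha* 4.18 times *dpr6*.

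Other gene lists moved beside the members. In bulk RNA a lower level can come from fewer cells of a type or from less RNA per cell, and these cannot be told apart. Of 16 neuron markers, 15 were called lower at each stage, with medians of −5.97 and −7.43, so the neuron markers fell with the members. The summed neuron marker level was 30333 normalized counts in N-FACS and 6657 in N-T0, and 31071 and 9249 in the N-T3 comparison. *unc-13* was the marker not called lower, and it accounted for 5179 of the 6657. *elav*, an RNA-binding protein of all neurons, went from 3941 to 440 and 585, while *brp*, an active zone protein, went from 1583 to 18.3 and 7.46. No neuron marker was at 0, and *Syt1* and *VAChT* were under 3 normalized counts in N-T3. Among the called neuron markers, *Snap25* was lowered the least (log2 fold change −1.37 and −0.86), and 4 members in N-T0 and 3 in N-T3 had higher values than it, none of them called lower.

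Of the remaining lists, glial markers were also mostly lower, while the others had fewer genes called lower, or none. Of 10 glial markers, 8 were called lower at each stage (medians −3.63 and −4.25), although the sum was 13237 in N-FACS and 26329 in N-T0. *Eaat1*, a glutamate transporter of glia, was the marker called higher (log2 fold change 1.84 and 1.32). It went from 5841 in N-FACS to 20898 in N-T0 and so made up most of the 26329. The 12 neural stem cell genes had medians of −0.19 and −0.10, with 1 higher and 3 lower at each stage. Their log2 fold changes ran from −2.95 to 0.94 in N-T0 and from −4.04 to 0.96 in N-T3. Hemocyte genes rose, with 8 of 10 called higher in N-T0 and 7 in N-T3, and *Hml*, a hemolectin of blood cells, went from 39.1 to 814 and 498. Muscle genes had 2 higher and 3 lower of 12 in N-T0 and 1 higher and 3 lower in N-T3. Adult fat body genes had 4 higher of 7 at each stage. The part of these cell types in the member values was not tested.

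Another 37 recognition and adhesion genes, chosen by name, were set beside the members. In N-T0, 28 of them were called lower and 1 higher, and in N-T3, 29 lower and 3 higher, with medians of −2.29 and −2.66. *wrapper* is in this list and the glial list. *Ama*, a secreted immunoglobulin protein of the nervous system, went from 2351 to 27.7 (log2 fold change −6.41, SE 0.40, adjusted p = 9.8e-55) and to 1.05 in N-T3. *Dscam2* (−5.40, SE 0.38, in N-T0 and −5.08, SE 0.35, in N-T3), *klg* (−5.15 and −6.46) and *Dscam4* (−4.18 and −4.40) were lower at both stages, as were *Dscam3* (−5.05 and −3.86), *Nrx-1* (−3.08 and −2.62), *tutl* (−3.82 and −5.31) and *Nlg2* (−4.61 and −4.73). *Nlg1*, a neuroligin of the postsynaptic muscle side, went from 12.4 to 67.2 and 92.3, called higher at both stages (log2 fold change 2.44, SE 0.64, and 2.89, SE 0.44). *kek1*, a transmembrane protein with leucine-rich repeats, and *Tollo*, a Toll family receptor, were called higher in N-T3, at 1.23 (SE 0.17) and 0.94 (SE 0.16). Between the allograft stages 33 of the 37 were listed, and 5 of these were called lower in N-T3, namely *Ama*, *rst*, *Con*, *Fas3* and *Lac*. Of all 9792 tested features 1.02% were called lower there. The difference between the 37 genes and the 53 members was not tested.

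**Figure D4:**
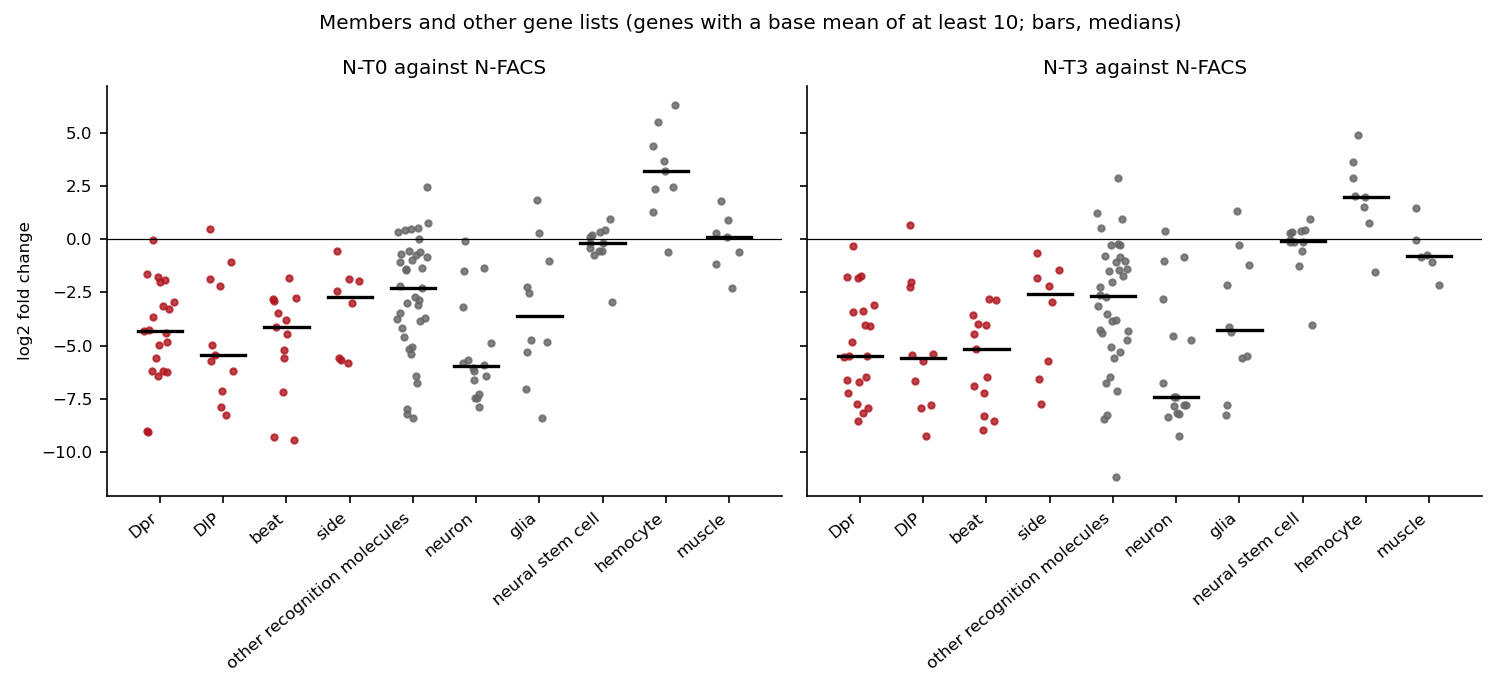
Log2 fold change against N-FACS for each member (red, by family) and for genes of other lists (grey), in N-T0 (left) and N-T3 (right), for genes at a base mean of 10 or more. Black bars are medians, which are −5.97 and −7.43 for neuron markers, −0.19 and −0.10 for neural stem cell genes and 3.20 and 1.99 for hemocyte genes.

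Between the allograft stages little was resolved. The comparison of N-T3 with N-T0 listed 42 members, of which 28 had an adjusted p and 14 had none. In this comparison 0 members were called higher and 1 lower, where 0.429% and 1.02% of 9792 features were called. At an unadjusted p under 0.05, 2 members passed, *dpr18* and *dpr7*. The share of all features that passed this limit was not computed, so nothing is drawn from that count. The median log2 fold change of the members at a base mean of 10 or more was −0.16, and the SEs ran from 0.26 to 2.40. The 95% limits lay within −1 and 1 for 4 members and within −0.5 and 0.5 for 0, so a change of 1 on the log2 scale stayed within the limits of most members in at least 1 direction. Of the 42 members, 31 were below 0 and 11 above, and the share of all features below 0 was not computed. Only 19 of the 42 members had a base mean of 10 or more, and 10 had a stage mean under 3. Many of these signs thus rest on few reads. Of the 10 *beat* genes listed none was called. N-T0 entered this comparison and the one with N-FACS.

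*dpr18* was the member called lower. Its mean was 356 in N-FACS, 93.4 in N-T0 and 22.6 in N-T3, and it lies on chromosome X at 16063738 to 16070304. From N-T0 to N-T3 the log2 fold change was −2.07 (SE 0.52, 95% limits −3.09 to −1.04, adjusted p = 0.012). The call was lost at an adjusted p of at most 0.01 and in the test of a change above 0.5 (adjusted p = 0.22). *dpr7* had a log2 fold change of −1.82 (SE 0.73, adjusted p = 0.32). *DIP-alpha*, *dpr12* and *dpr17* had log2 fold changes of 0.17, 0.27 and −0.24, with limits inside −1 and 1, and the fourth member with such limits was *side-VII* (−0.33).

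**Figure D5:**
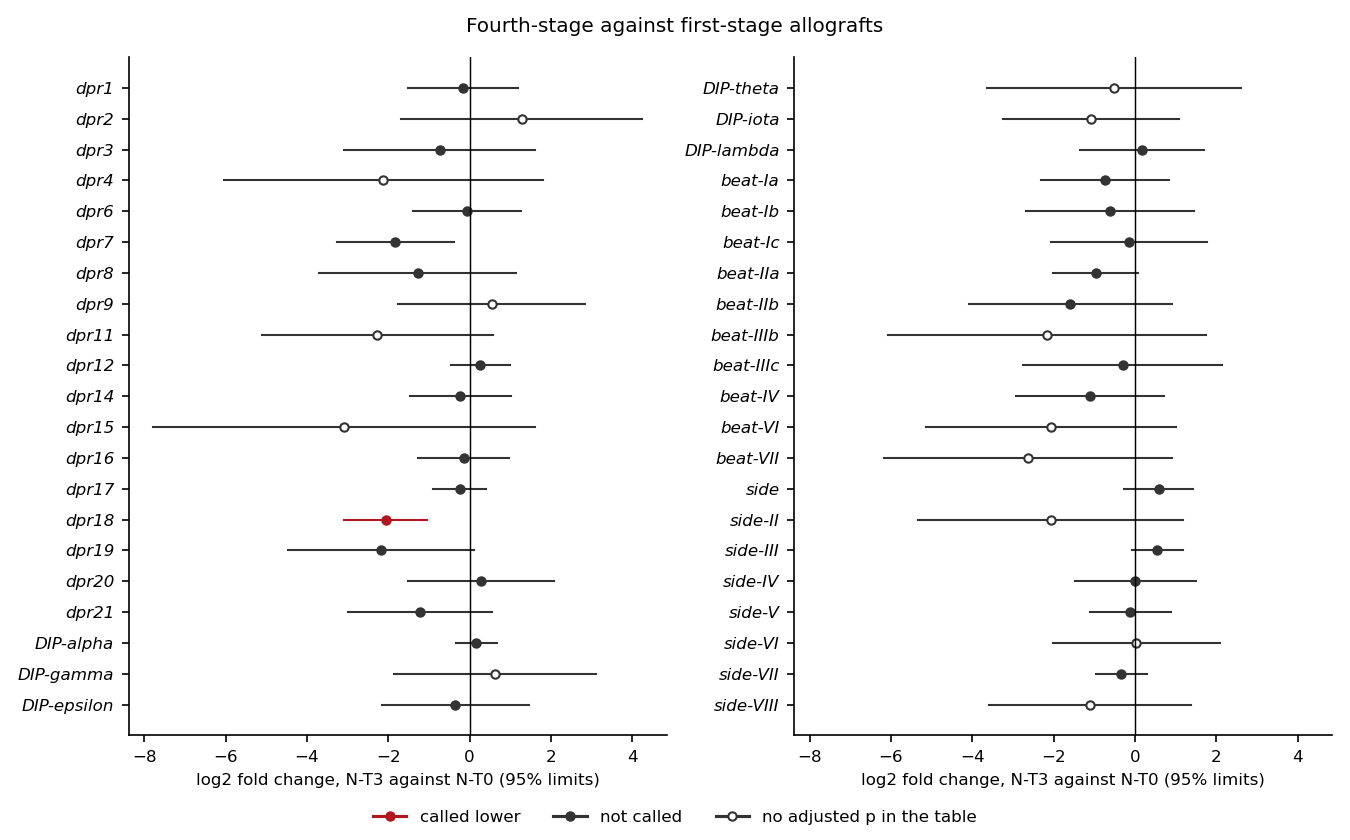
Log2 fold change of N-T3 against N-T0 with 95% limits for the 42 members listed in that comparison, in 2 columns. The gene called lower, *dpr18*, is red at −2.07, filled black points have an adjusted p and were not called, and open points have no adjusted p.

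Members were long genes. All 53 were matched by gene identifier in BDGP6.54. Their median span from first to last base was 35.6 kb, against 2.16 kb for 13986 protein-coding genes, and 42 members were in the longest 10%, above 14.7 kb. Chromosome 3R held 21, 2L 15, 2R 7, X 5, 3L 4 and chromosome 4 1. An exon overlap of at least 50 bases with another gene was found in 7 members, among them *dpr4* (15.7% of its exon bases) and *DIP-theta* (12.6%), and reads in those stretches could belong to either gene.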

How the data were processed

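RNA was measured in 3 libraries each of N-FACS, N-T0 and N-T3. The authors' steps were quality control (FastQC 0.11.9), alignment to BDGP6.32 (STAR 2.7.5) and counting per gene (featureCounts 2.0.1). The groups were compared by the authors in DESeq2 1.30.1 under R 4.0.2. The 3 deposited tables hold the comparisons only, so depth per library is unknown. Their base mean is a score, the mean over the compared libraries of counts divided by the authors' size factors. The deposited fold changes and standard errors are on the log2 scale, and the deposited p-value is the authors' Wald p-value, adjusted by Benjamini and Hochberg with independent filtering. The deposited Wald statistic, a score, was not used. These comparison values are the authors' own and were read as deposited.

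Group means were solved from base mean and fold change, which makes them 1.01 to 1.03 times higher in N-FACS when taken from the N-T3 comparison than from the N-T0 comparison (N-FACS levels in the text come from the N-T0 comparison). Limits of 95% are normal. A Wald test of a change above 0.5 was computed here from the deposited values and adjusted over features with an adjusted p. Means under 3 were set to 3 for folds. Levels per kilobase used the union of exons of BDGP6.54 (Ensembl 115), which is not the annotation the authors counted on. The code, tested on simulated data, ran on Python 3.11.15 with pandas 2.3.3, numpy 2.4.6, scipy 1.17.1 and, for plots, matplotlib 3.10.9. Promoter motifs and protein identity were not analysed here.

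Members, lists, pairs and tests were chosen with earlier results of these data known. Full values were given for members with the 5 smallest p per comparison and direction at a base mean of at least 30, members called between allograft stages or higher, the 5 highest per kilobase in a group, and partners in pairs, and others were added for completeness. Of the 37 other recognition genes, those called higher, the 5 with the smallest p among those lower in each comparison with N-FACS, and those called between the allograft stages were named.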

Additional observations from a re-analysis of the deposited data

Results flagged for a closer look

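*dpr18* differed between the stages of the allograft: against N-FACS it was at −1.93 (SE 0.50) in N-T0 and −4.01 (SE 0.41) in N-T3 on the log2 scale, and the test of N-T3 against N-T0 gave −2.07 (SE 0.52, adjusted p = 0.012, by the Wald test of the authors). No other of the 28 members with an adjusted p in that comparison passed, where 1.02% of 9792 features were called lower. The stages were each represented by 3 libraries, and the changes against N-FACS come from the same libraries. The call was lost at an adjusted p of at most 0.01 and in the Wald test of a change above 0.5 (adjusted p = 0.22).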

How the results depend on the processing

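Calls were repeated with 6 changes: only features at a base mean of 30 or more, a minimum log2 change of 1, an adjusted p limit of 0.01, the Wald test of a change above 0.5, adjustment over every feature that has a p, and centred fold changes. Over them, 46 to 48 members were lower in N-T0 and 47 to 49 in N-T3. The count of members higher in N-T3 was 0 with a minimum log2 change of 1 and 0 under the Wald test, both through *DIP-alpha*. The count lower in N-T3 against N-T0 was 0 with the p limit of 0.01 and 0 under the Wald test, both through *dpr18*. The median in N-T3 was −4.73 with 3 in place of means under 3. Over these settings, 876 values of members stayed the same, a count that includes those not called to begin with. None turned direction, and 12 lost their call. Besides *DIP-alpha* and *dpr18*, these were *dpr1* and *dpr6* in N-T0 with the p limit of 0.01 and under the Wald test, and *DIP-zeta* and *DIP-eta* at both stages, which have a base mean under 30. No paired analysis was possible because no values per library were used, and for the same reason another tool, another normalization and the omission of single replicates were not run. Over all features, the Wald test called 907 higher and 1141 lower in N-T0 (1858 and 1974 in the authors' test), 1210 and 1441 in N-T3 (2153 and 2280), and 7 and 23 between the stages (42 and 100). A minimum log2 change of 1 gave 1207 higher in N-T0 and 1272 higher and 1470 lower in N-T3, and the p limit of 0.01 gave 18 and 43 between the stages. Low counts limit folds: 22 members had a mean under 3 in at least 1 allograft stage.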
